A study of Mus musculus with 21 samples.

Results

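Androgenetic haploid embryonic stem (ahES) cells were compared with mouse embryonic fibroblasts (MEF) across the genes of an Affymetrix GeneChip mouse genome array. The arrays were chosen by title: 9 arrays of the ahES lines AH129-5, AH129-N1 and AH129-NC1, with 3 biological replicates of each line, and 3 biological replicates of MEF. They are 12 of the 21 arrays of the series. The other 9 arrays hold the diploid ES lines CS1-1 and R1 and round sperm, with 3 arrays each. They entered the estimate of the spread between replicates and are otherwise used only where they are named. The strain, sex and sort of the diploid lines are not given here. Their parts in any difference between ahES and diploid ES cells were not tested.

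The ahES lines are of 129 Sv background, grew in N2B27 medium with 2i and LIF, and were sorted by flow cytometry so that RNA came from haploid cells in G0/G1. N2B27 is a serum-free medium, 2i is a pair of inhibitors of MEK and GSK3, and LIF is the cytokine that acts through STAT3. The MEF are of CD1 background and grew in DMEM with serum, with no sort stated. The labels give neither the sex nor the passage of the MEF, nor how many embryos they came from. Each ahES line is 1 derivation, so its 3 arrays share that origin. Ploidy, strain, medium, sort and cell kind differ together between the groups, and their parts in a difference cannot be told apart.

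ahES cells derive from embryos whose genome comes from sperm alone, and they keep an unpaired chromosome set in culture. In naive ES cells a network of transcription factors around Pou5f1, Sox2 and Nanog holds cells able to form all tissues of the embryo, and the cells grow as compact epithelial colonies. Fibroblasts are mesenchymal cells that lay down collagen matrix, grip it through integrins and pull on it with actin and myosin. The comparison therefore spans the naive pluripotent state and a differentiated stromal state.

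Levels are log2 MAS5 signals, to which 9.70 signal units were added before the log was taken again. Of 18193 genes with a probe set of their own, 13220 were tested, those above the 40th percentile of the array on all 3 arrays of at least 1 of the 4 groups compared. A gene counts as called when the adjusted p of the limma fit was under 0.05 and the difference was at least 2-fold. Where a group lay at or under its 40th percentile (about 5.50 in ahES cells and 5.44 in MEF), a fold is given as "at least", and the fitted difference is not a measured size. Genes low in all groups were not tested, and a gene could pass the filter through the group where it is high, so counts over lists are of tested members only. Differences are ahES minus MEF on the log2 scale, with the SE of the fit. For single genes, the 3 ahES values are the lowest, the median and the highest of the 9 arrays, and the 3 MEF values are those of the 3 arrays.

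The groups stood far apart. Pearson's r over the 13220 genes ran between 0.724 and 0.742 for the 27 pairs of an ahES and a MEF array. It ran between 0.965 and 0.976 for arrays of different ahES lines, and between 0.986 and 0.988 among MEF arrays. These genes are not independent points, and the arrays share their scaling. In the 3'-to-5' difference of the Actb control probe sets the 9 ahES arrays lay at 0.45 to 0.62 and the 3 MEF arrays at 0.28 to 0.39 on the log2 scale. For Gapdh these ranges were −0.35 to −0.09 and −0.23 to −0.16. The part of RNA quality in any result was not tested.

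In ahES cells 2788 genes were higher and 2780 were lower than in MEF, which is 21.1% and 21% of the tested genes and 42.1% together. The values of the 2 groups did not overlap for 63.3% of the tested genes. Of the 5568 called genes, 4377 were called in the same direction in each of the 3 ahES lines taken alone. The median difference over all tested genes was 0.08, against which the medians of gene lists below are to be read. Counts of called list members are to be read against the shares of 21.1% higher and 21% lower. Counts of uncalled members are to be read against 7652 of 13220. Median-centring of the arrays would raise the median difference over all tested genes to 0.21.

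**Figure D1:**
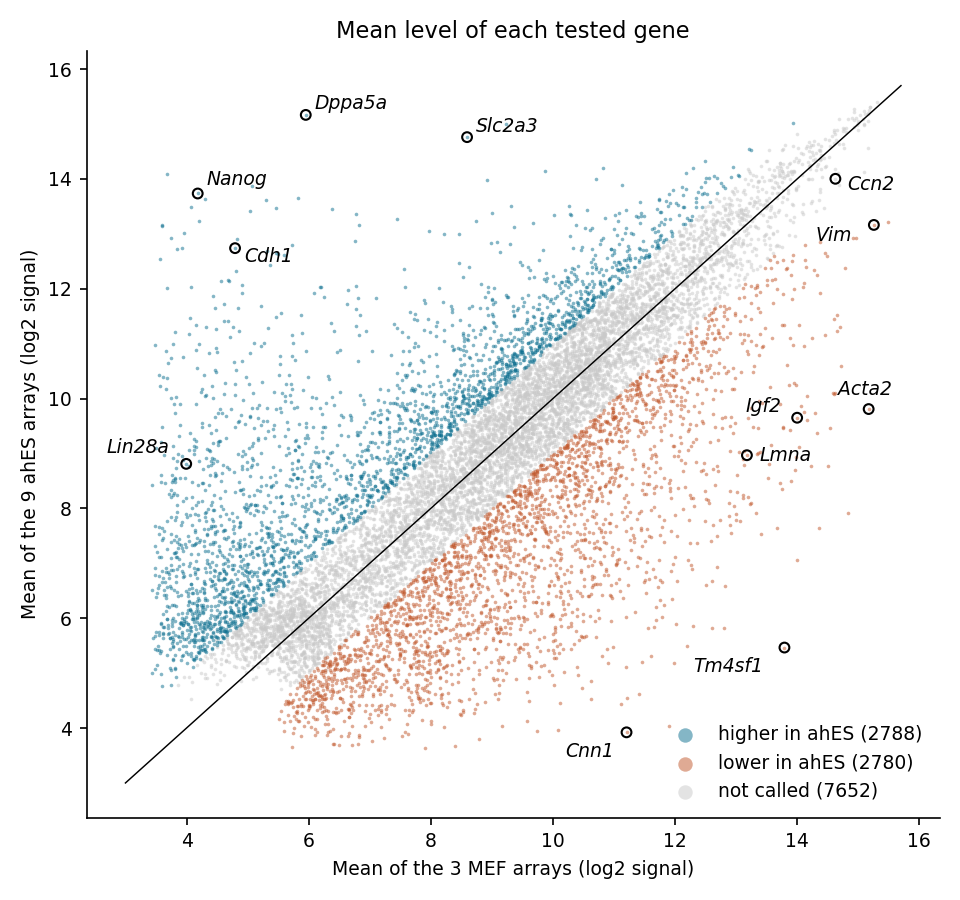
Mean log2 signal of each of the 13220 tested genes on the 9 ahES arrays (vertical axis) and on the 3 MEF arrays (horizontal axis), with equality as a line. The 2788 higher and 2780 lower genes fill both sides, and circles mark genes named in the text.

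In 18 of the 20 largest rises MEF lay near background, and in 12 of the 20 largest falls ahES cells did, so the order and membership of both sets rest partly on values there. The rises held Trap1a, an X-linked tumour rejection antigen (at least 402-fold). They held the pluripotency factors Nanog, Pou5f1, Zfp42, Sall4, Nr0b1 and Tfcp2l1, and Fgf4, Fbxo15, Dppa5a and Tdgf1, the last a Nodal coreceptor. They also held genes of the germ line and of the X chromosome, namely Rhox5, Mageb16 and Fmr1nb on the X and Morc1, which is needed in male meiosis. Calcoco2, an autophagy receptor for invading bacteria, read 12.83, 13.21 and 13.38 in ahES cells and 3.44, 3.88 and 3.48 in MEF. Trpm1, a cation channel known from retina and melanocytes, read 12.55, 13.15 and 13.38 in ahES cells and 4.11, 4.02 and 3.75 in MEF. Over the 4 probe sets of Trpm1 above background the difference ran from 0.58 to 9.06. Crxos (8.97 ± 0.09), Gm364 (8.79 ± 0.17) and 1700013H16Rik (7.96 ± 0.16) completed the set. In all 20 genes the ahES arrays lay wholly above the MEF arrays, as the choice required.

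The 20 largest falls included genes of connective tissue, tendon and smooth muscle. Tm4sf1, a tetraspanin-like membrane protein, read 3.63, 5.33 and 6.67 in ahES cells and 13.65, 13.69 and 14.04 in MEF, a difference of −8.33 ± 0.35 (at least 249-fold). Cnn1, Actg2, Myl9 and Tagln belong to the smooth muscle contractile apparatus. Tnmd (−6.80 ± 0.36), a tendon membrane protein, Fmod (−6.69 ± 0.25), a collagen-binding proteoglycan, Mgp (−6.78 ± 0.49), which inhibits mineral deposition, and Smoc2 (−6.67 ± 0.36) belong to matrix and connective tissue. The secreted proteins Tgfb3, Ltbp2, Wnt5a, Cck, Tll1 and Tfpi2 fell by 6.11 to 6.78, and the mesenchymal factor Twist2 fell by 6.24. S100a4, also called fibroblast-specific protein, read 6.66, 7.94 and 9.03 in ahES cells and 14.73, 14.86 and 14.93 in MEF (−6.93 ± 0.20). Cavin2, U90926 and Gm2115 were the others.

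The tested genes of a list of core and naive pluripotency were all on the ahES side. Of 39 genes listed, 36 had a probe set of their own and 36 were tested, and 36 were higher and 0 lower, with a median difference of 6.59. Esrrb, an orphan nuclear receptor of the naive network, read 11.72, 11.93 and 12.12 in ahES cells and 5.16, 4.20 and 5.39 in MEF (7.01 ± 0.17, adjusted p = 5.42e-18). Gdf3, a TGF-beta family ligand of ES cells, rose by 6.46 ± 0.08, and Otx2, which directs exit from the naive state, by 5.60 ± 0.14. Otx2 is counted again among the genes of the primed epiblast below. The smallest difference among the 19 transcription factors was that of Klf4 (1.88 ± 0.06), which fibroblasts also expressed: its MEF arrays read 11.38, 11.43 and 11.51, and its ahES arrays 13.13, 13.32 and 13.57.

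The region just upstream of a gene's start holds part of its regulatory sequence. Pou5f1 protein binds an octamer, whose core was searched as TTTGCAT, and next to a SOX site as TTTGCATNACAA, on both strands of the RefSeq promoters (GRCm38.p6, 250 bases before to 50 after each start). The longer motif, which contains the shorter, was in 0.0365% of 32851 promoters. Among the pluripotency list, 22 genes had 32 promoters; both Nanog entries held the longer motif, while Sox2 and Zfp42 held only the core, which 4.63% of all promoters hold. A match is a description of these letters and not of binding. The Nanog promoter on chr6:122707315-122707614 (plus strand) is shown because Nanog was among the largest rises, with the match, which starts 151 bases before the gene's start, in capitals.
Nanog: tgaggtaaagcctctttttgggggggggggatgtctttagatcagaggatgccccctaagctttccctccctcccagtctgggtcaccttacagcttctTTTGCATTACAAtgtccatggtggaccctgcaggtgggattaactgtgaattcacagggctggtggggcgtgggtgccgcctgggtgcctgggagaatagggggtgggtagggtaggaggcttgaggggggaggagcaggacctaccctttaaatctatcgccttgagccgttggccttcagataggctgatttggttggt

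Markers of the next stage were split. Of 18 tested genes of the primed epiblast and early germ layers, 9 were higher and 3 lower in ahES cells. Zic2, Otx2 and the de novo methyltransferase gene Dnmt3b were on the higher side. Fgf5, the classical marker of the primed epiblast, was lower: it read 3.43, 3.74 and 5.27 in ahES cells and 7.13, 7.53 and 6.88 in MEF (−3.16 ± 0.38). Cdx2, a trophoblast and posterior gene, was higher (5.22 ± 0.19), and Gata6, a primitive endoderm factor, was lower (−1.94 ± 0.20).

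Epithelial and mesenchymal adhesion genes went in opposite directions. Of 29 tested genes of epithelial junctions and their regulators, 20 were higher and 2 lower in ahES cells (median 1.77). Cdh1, which encodes E-cadherin, read 12.45, 12.69 and 13.08 in ahES cells and 4.17, 5.21 and 5.00 in MEF (7.94 ± 0.24, at least 158-fold). Dsg2, a desmosomal cadherin, differed by 7.02 ± 0.11 (130-fold), Epcam by 6.73 ± 0.15 and the claudin gene Cldn4 by 5.05 ± 0.12. The other Epcam probe set above background differed by 0.41. The 2 lower genes were Pkp2, a desmosomal plaque protein (−1.59 ± 0.09), and Krt19, a simple keratin (−1.82 ± 0.18).

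Of 17 tested genes of mesenchymal adhesion and intermediate filaments, 14 were lower, 1 was higher and 2 were not called, with a median of −2.43. Cdh11, the cadherin of mesenchyme, read 7.75, 8.71 and 8.84 in ahES cells and 13.91, 13.95 and 13.84 in MEF (−5.39 ± 0.12). Cd44, the hyaluronan receptor, fell by 4.34 ± 0.12 and Vim, the vimentin gene, fell by 2.09 ± 0.10. Cdh2, which encodes N-cadherin, fell by 1.81 ± 0.15. The exception was Cd9, a tetraspanin present on ES cells (1.38 ± 0.29), and the uncalled members were Nes (−0.59 ± 0.17) and Cd24a (−0.50 ± 0.09).

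Among 20 tested regulators of splicing, 6 were higher and 5 lower in ahES cells, close to the shares of all tested genes (21.1% and 21%), so the count says nothing of the group. Mbnl1 and Mbnl2, which promote differentiated splice forms, read at 9.60, 10.01 and 10.20 and at 9.07, 9.69 and 10.34 in ahES cells, against 13.35, 13.42 and 13.48 and 12.88, 13.00 and 12.87 in MEF. Mbnl1 fell by 3.49 ± 0.15. Mbnl2 fell by 3.25 ± 0.10, and over its probe sets above background the difference ran from −3.79 to 0.38. The family member Mbnl3 rose by 1.48 ± 0.11 in its brightest probe set. In the mean over its probe sets Mbnl3 differed by 0.04 and was not called. The epithelial splicing factor Esrp2 rose by 1.67 ± 0.27, or 0.88 and not called in the mean over its probe sets. Esrp1 passed the call as well, but lay near background in both groups, so no fold is given.

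The genes that define fibroblasts were almost all lower. Of 42 tested identity genes (45 with a probe set, 47 listed), 39 were lower, 0 were higher and 3 were not called, with a median of −3.26. Prrx1, a homeobox gene of limb and trunk mesenchyme, read 7.04, 8.12 and 8.56 in ahES cells and 13.33, 13.32 and 13.32 in MEF (−5.40 ± 0.15, 42.2-fold). Thy1 (−5.21 ± 0.22), Pdgfra (−4.83 ± 0.21), Pdgfrb (−4.98 ± 0.16), Snai2 (−4.78 ± 0.20) and Twist1 (−4.42 ± 0.29) fell with it. The uncalled genes were the homeobox genes Msx1 (−0.70 ± 0.34) and Msx2 (−0.37 ± 0.29) and the chromatin gene Prdm6 (−0.04 ± 0.33).

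Many of these transcripts lay above the 40th percentile in ahES cells. Col1a2, a chain of type I collagen, read 12.61, 12.82 and 13.35 in ahES cells and 14.92, 14.94 and 15.02 in MEF (−2.04 ± 0.13). Another probe set of Col1a2 differed by −4.71. The group mean was above the 40th percentile for 34 of the 42 genes in AH129-5, 32 in AH129-N1 and 35 in AH129-NC1. Most probe sets of any array lie above that level, and the share of all tested genes is not given here. The ahES cells were sorted as haploid cells in G0/G1. Whether these bulk values come from fibroblasts that passed the sort or from a low level in every ES cell was not tested. The median difference of the list was −3.09 in AH129-5, −3.43 in AH129-N1 and −3.31 in AH129-NC1. Of the 42 genes, 5 differed between the lines by the F test at 2-fold or more, where 8.41% of all tested genes did.

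Collagens and the enzymes that assemble them were lower without exception among the called genes. Of 20 tested collagen chains 19 were lower, and of 18 tested assembly and crosslinking enzymes 14 were lower, with 0 higher in either set. Col6a1 and Col4a1 fell by 5.37 ± 0.16 and 5.27 ± 0.11, and Loxl1, a crosslinking oxidase, by 5.14 ± 0.09. The uncalled chain was Col18a1 (−0.33 ± 0.13), a basement membrane collagen. P4hb (−0.74 ± 0.07), Crtap (−0.56 ± 0.06), P3h1 (−0.63 ± 0.15) and Pcolce2 (−0.68 ± 0.11) were the uncalled enzymes and cofactors.

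Other matrix genes followed, with 41 of 51 lower and 3 higher (median −2.81). The 3 higher genes encode basement membrane proteins. Lama1, the laminin alpha chain of the early embryo, read 10.24, 10.42 and 10.63 in ahES cells and 5.63, 5.30 and 5.62 in MEF (4.90 ± 0.09, 29.9-fold). Nid2, which links laminin to collagen, rose by 3.22 ± 0.11, and Lama5 by 2.44 ± 0.14. Fn1, the fibronectin gene, was not called (−0.97 ± 0.05): its ahES arrays read 13.25, 13.42 and 13.74 and its MEF arrays 14.42, 14.39 and 14.50, without overlap and within 2-fold.

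The contractile and caveolar genes showed the lowest median of the lists tested, −3.50, with 34 of 38 lower and 1 higher. Acta2, the smooth muscle actin of activated fibroblasts, read 8.92, 9.86 and 10.62 in ahES cells and 15.09, 15.12 and 15.30 in MEF (−5.36 ± 0.07, 41.1-fold). Myl9, a regulatory myosin light chain, fell by 6.94 ± 0.26 and Cnn1, a calponin, by 7.28 ± 0.32. Cnn3, a calponin of non-muscle cells, was not called (−0.06 ± 0.09) and its groups overlapped. Csrp2, a LIM protein, was the higher gene (1.42 ± 0.07).

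All 7 tested genes of caveolae, the membrane pits that buffer stretch, were lower, with a median of −5.18. Cav1, their coat protein, read 7.98, 9.03 and 9.27 in ahES cells and 14.16, 14.25 and 14.25 in MEF (−5.46 ± 0.17). Cavin1 and Cavin2, which shape the coat, fell by 5.18 ± 0.14 and 6.44 ± 0.27. Srf, the factor that drives many actin genes, did not reach 2-fold: it read 9.41, 9.48 and 9.79 in ahES cells and 10.29, 10.14 and 10.19 in MEF (−0.65 ± 0.07). Of 4 genes of Srf and its cofactors, Mrtfb was not called either (−0.63 ± 0.06), and Mrtfa and Myocd, named here after their values were seen, fell by 2.13 and 2.18.

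**Figure D2:**
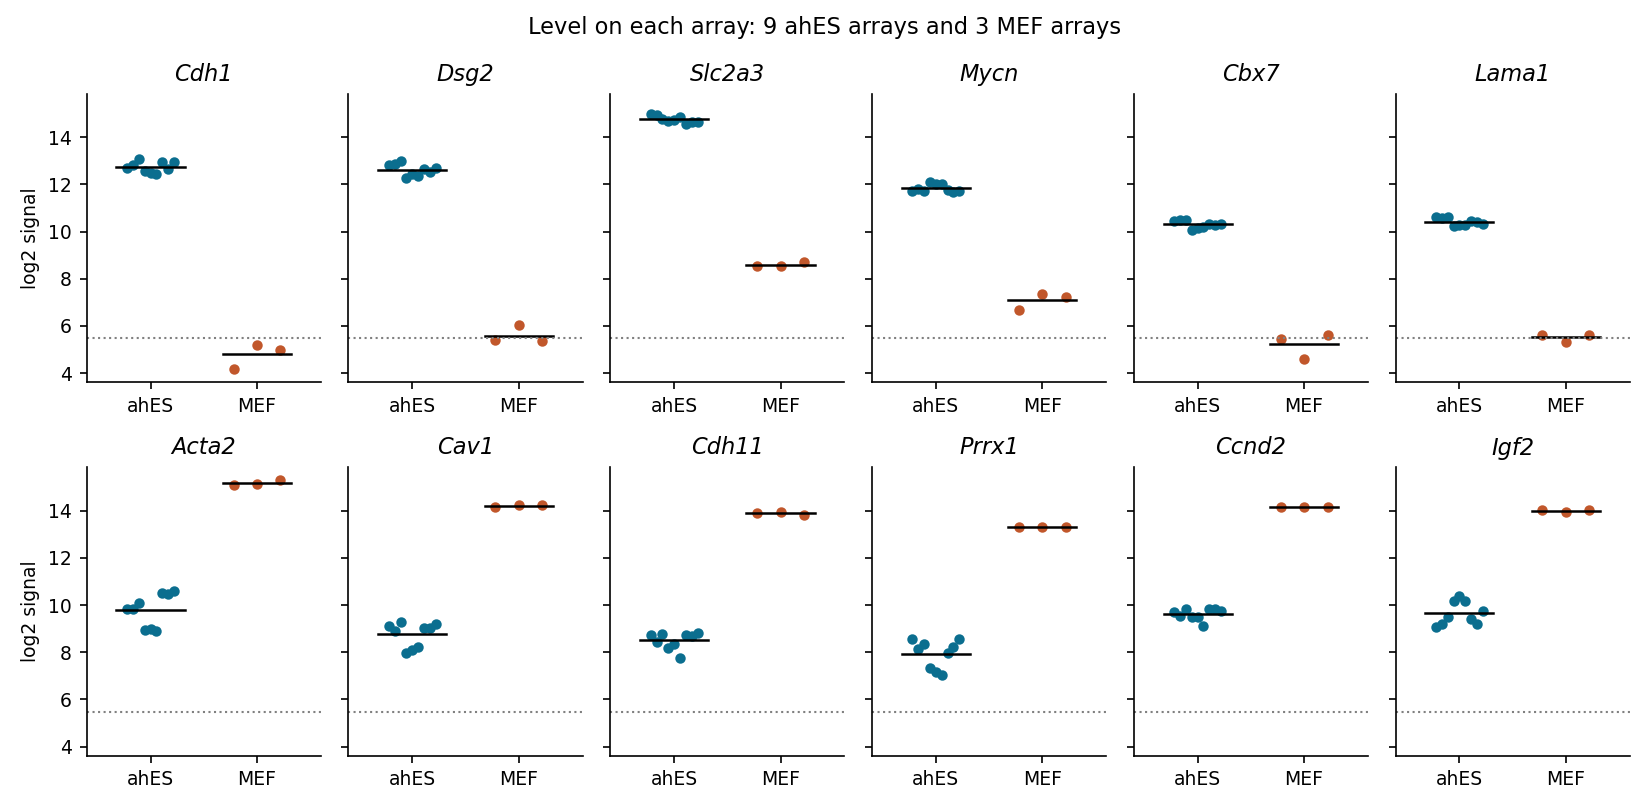
Log2 signal of 12 genes on each of the 9 ahES arrays (left in each panel) and the 3 MEF arrays (right), with group means as bars and the mean of the groups' 40th percentiles as a dotted line. The upper 6 genes were higher and the lower 6 lower in ahES cells, and no gene's groups overlap.

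SRF protein binds the CArG box, searched by its consensus on both strands. It was in 1.63% of the 32851 promoters, in none of the 32 promoters of the pluripotency list, and in 3 of the 30 promoters of 24 actin and myosin genes, those of Cnn2, Myl9 and Vcl. Letters absent from these windows say nothing of sites elsewhere. The promoters of Myl9 (chr2:156775214-156775513, plus strand) and Cnn2 (chr10:79988350-79988649, plus strand) are shown, since both genes belong to the group with the lowest median; Cnn2 and Vcl are named for this match, after their values were seen. The box is in capitals and starts 161 bases before the start of Myl9 and 56 bases before that of Cnn2.
Myl9: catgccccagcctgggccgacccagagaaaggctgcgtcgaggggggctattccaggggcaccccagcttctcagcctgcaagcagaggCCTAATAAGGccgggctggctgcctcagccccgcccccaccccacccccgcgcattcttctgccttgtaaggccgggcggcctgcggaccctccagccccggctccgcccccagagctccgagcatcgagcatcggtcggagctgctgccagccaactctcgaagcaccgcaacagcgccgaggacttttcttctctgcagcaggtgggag
Cnn2: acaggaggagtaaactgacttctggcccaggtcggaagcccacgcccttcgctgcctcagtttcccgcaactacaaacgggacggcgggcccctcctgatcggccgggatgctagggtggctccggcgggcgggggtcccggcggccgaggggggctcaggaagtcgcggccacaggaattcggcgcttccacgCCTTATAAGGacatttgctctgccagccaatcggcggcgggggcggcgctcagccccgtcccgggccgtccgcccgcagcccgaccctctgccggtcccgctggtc

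Targets of YAP and TEAD, the factors that respond to spreading and tension, were divided between lower and uncalled. Of 22 tested, 11 were lower, 1 was higher and 10 were not called (median −1.03). Ankrd1 (−5.73 ± 0.34) and the receptor kinase gene Axl (−5.93 ± 0.21) fell most. The widely used target Ccn2 was not called (−0.62 ± 0.18): its ahES arrays read 13.80, 13.89 and 14.38 and its MEF arrays 14.55, 14.62 and 14.71. Yap1 was within 2-fold as well (−0.49 ± 0.06), and Tead4 was the higher gene (1.31 ± 0.26).

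The nuclear lamina differed by subunit. Lmna, which encodes the lamins A and C of differentiated and stiff tissues, read 8.40, 8.83 and 9.65 in ahES cells and 13.21, 13.18 and 13.14 in MEF (−4.21 ± 0.09, 18.5-fold). Lmnb1, which encodes a B-type lamin, read 11.95, 12.11 and 12.25 in ahES cells and 10.43, 10.20 and 10.17 in MEF (1.85 ± 0.09). The lamin B receptor gene Lbr rose by 1.37 ± 0.06. Among 13 lamina and nuclear envelope genes tested, 4 were higher and 3 lower, not far from the 21.1% and 21% of all tested genes. Over the probe sets of Lmna above background the difference ran from −4.80 to −0.87. Sun1 and Syne2 were on the higher side where Sun2 and Syne1 were on the lower side in the probe sets used. The other probe set above background differed by −0.14 for Sun2 and by −0.45 for Syne1.

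**Figure D3:**
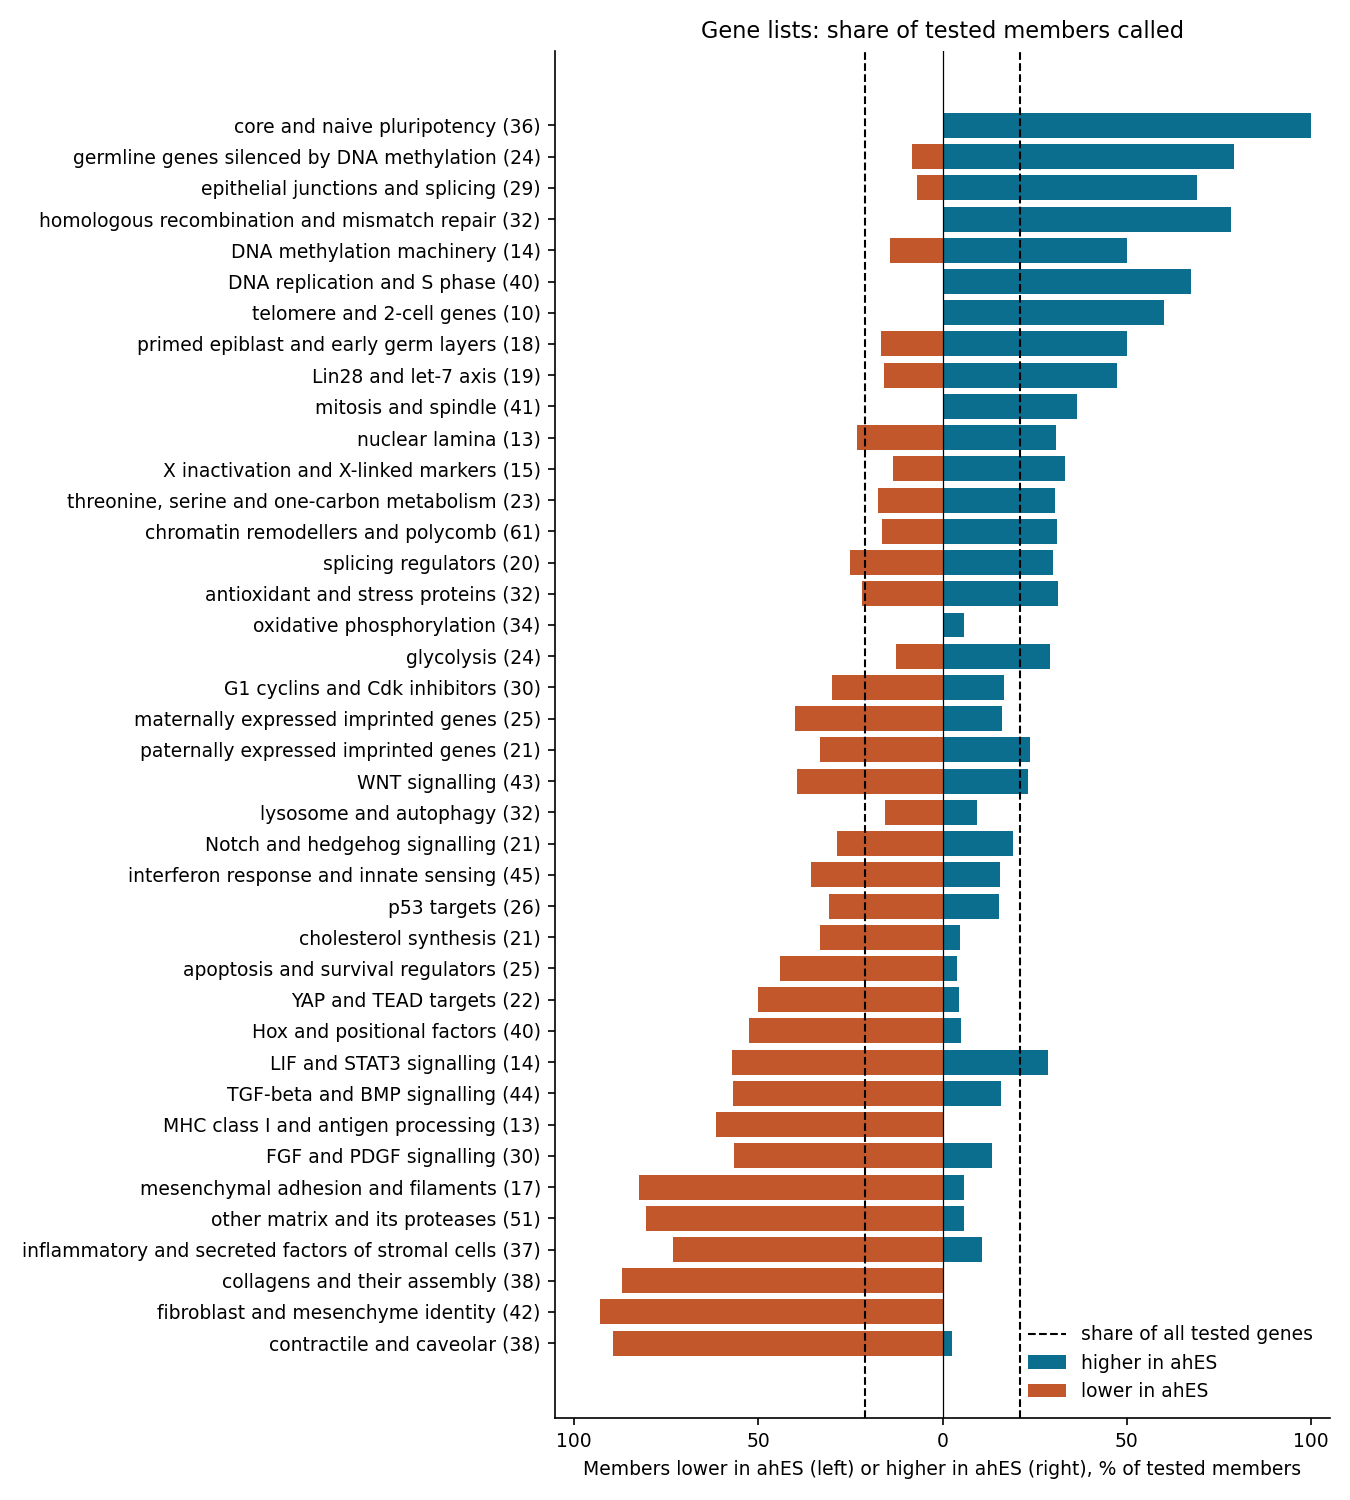
Share of the tested members of each gene list that were lower (left) or higher (right) in ahES cells, with the number tested in parentheses and the shares of all tested genes, 21% lower and 21.1% higher, as dashed lines. Lists are ordered by median difference, with pluripotency at the top and contractile and caveolar genes at the bottom.

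Signalling genes went both ways within pathways. Of 44 tested genes of TGF-beta and BMP signalling, 25 were lower and 7 higher in ahES cells (median −1.27). The genes of the Nodal branch named here were on the ahES side, and the branch was not counted as a set. Nodal rose by 5.89 ± 0.22, its inhibitor genes Lefty1 and Lefty2 by 4.08 ± 0.23 and 7.40 ± 0.32, and its coreceptor Tdgf1 by 9.55 ± 0.12. Lefty1 and Tdgf1 are also on the pluripotency list. The latent complex genes Ltbp1 and Ltbp2, the activin subunit gene Inhba and the BMP antagonist gene Grem1 fell by 5.07 to 6.78. Tgfbr2, the type II TGF-beta receptor gene, fell by 2.59 ± 0.13.

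Of 30 tested genes of FGF and PDGF signalling, 17 were lower and 4 higher (median −1.52). Fgf4, the autocrine ligand of ES cells, read 11.84, 12.01 and 12.26 in ahES cells and 3.63, 3.68 and 3.72 in MEF. Fgf7, a stromal ligand for epithelium, fell by 5.15 ± 0.22, and the receptor genes Fgfr1, Pdgfra and Pdgfrb fell as well. Transcripts that report ERK activity did not move together: Dusp6 (−1.49 ± 0.25), Fosl1 (−5.44 ± 0.41) and Spry4 (−1.59 ± 0.37) fell, while Etv5 (3.85 ± 0.07) rose. Spry2 (1.01 ± 0.10) passed the call by little and read 0.83 without AH129-5, 0.95 without AH129-NC1 and 0.98 to 1.00 without 1 of 3 single arrays, none of these called. MEK is inhibited in the ahES medium and not in the MEF medium, and the part of this was not tested.

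Of 43 tested WNT pathway genes, 17 were lower and 10 higher, against 21% and 21.1% of all tested genes. The target genes Axin2 (3.08 ± 0.14), Sp5 (6.44 ± 0.20) and Cdx1 (4.59 ± 0.15) rose in ahES cells, whose medium inhibits GSK3. Of 26 tested receptors and targets 8 were higher and 9 lower, and the part of the inhibitor was not tested. The ligand genes Wnt5a and Wnt4 and the receptor genes Fzd1 and Fzd2 fell by 3.25 to 6.13. In the LIF pathway 8 of 14 genes were lower and 4 higher: Lifr (1.45 ± 0.10), Socs3 (1.02 ± 0.23), Gbx2 (3.71 ± 0.17) and Bcl3 (1.12 ± 0.24) rose. Socs3 lost its call under 6 alternatives, with 0.45 without shared probe sets and 0.82 without MEF replicate 3, and Bcl3 (0.83) lost it without AH129-N1. The related receptor gene Osmr read 7.54, 8.09 and 8.42 in ahES cells and 13.03, 12.90 and 12.95 in MEF (−4.92 ± 0.21).

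Positional identity genes were lower or uncalled with few exceptions. Of 25 tested Hox genes 12 were lower, 1 higher and 12 not called, and of 15 other positional factors 9 were lower and 1 higher. Hoxb2, Hoxb3 and Meis1 lay near background in ahES cells, and were lower there by at least 11.6-fold for Hoxb2, 7.31-fold for Hoxb3 and 12.2-fold for Meis1. Over the 3 probe sets of Meis1 above background the difference ran from −4.33 to 0.50. The 2 higher genes were Hoxb13 (2.52 ± 0.26) and Meis2 (1.23 ± 0.26). Hoxa9 was not called over the 3 lines, and is taken up below with the genes that differ between lines.

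Of 14 tested genes of DNA methylation and its readers, 7 were higher in ahES cells, 2 lower and 5 not called (median 1.47). Tet1, a methylcytosine oxidase, read 11.63, 12.16 and 12.36 in ahES cells and 6.11, 6.56 and 5.90 in MEF (5.85 ± 0.13, 57.6-fold). Dnmt3b rose by 5.34 ± 0.13, its cofactor gene Dnmt3l by 3.80 ± 0.13 and Tet2 by 3.03 ± 0.11. The maintenance enzyme gene Dnmt1 was not called (0.58 ± 0.08), nor was Dnmt3a (0.88 ± 0.12), and the lower genes were Mbd1 (−1.03 ± 0.13) and Mbd2, which encode readers of methylated DNA. Mbd1 lost its call under 6 alternatives, with −0.35 in the mean over its probe sets.

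Germline genes that somatic cells keep silent by promoter methylation were read next. Of 30 on the array 6 were not tested, and of the 24 tested 19 were higher, 2 lower and 3 not called (median 4.38). A gene silent in MEF could pass the filter through the ES cells alone, so the count and median are partly set by it. Dazl, an RNA-binding protein of germ cells, read 10.43, 10.84 and 11.64 in ahES cells and 3.63, 3.42 and 3.42 in MEF (7.49 ± 0.16). Tex19.1 rose by 7.43 ± 0.10 and the X-linked homeobox gene Rhox5 by 8.0 ± 0.19. Taf9b (−1.38 ± 0.24) and Tdrkh (−1.93 ± 0.37) were lower, and Ddx4, Sycp1 and Brdt were not called.

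Among 61 chromatin genes 19 were higher, 10 lower and 32 not called (median 0.51). Over all tested genes 21.1% were higher and 21% lower, and 7652 of 13220 were not called. Of 21 polycomb genes 10 were higher and 3 lower. Cbx7, the chromodomain subunit of PRC1 in ES cells, read 10.05, 10.31 and 10.51 in ahES cells and 5.45, 4.61 and 5.63 in MEF (5.08 ± 0.14, at least 27.4-fold). The other Cbx7 probe set above background differed by −0.24. Jarid2 and Mtf2, accessory subunits of PRC2, rose by 4.54 ± 0.09 and 3.24 ± 0.05. Of 18 BAF remodeller subunits 13 were not called, among them the ATPase gene Smarca4 (−0.13 ± 0.05). Its paralogue Smarca2 (−2.49 ± 0.23), Smarcd3 (−2.62 ± 0.21) and Smarcc2 (−1.49 ± 0.12) fell. The other Smarca2 probe set above background differed by −0.69.

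The genes around the let-7 microRNAs, which mark differentiated cells and are blocked by Lin28 proteins, were divided. Lin28a, which blocks let-7 maturation, read 8.09, 9.0 and 9.41 in ahES cells and 4.26, 3.53 and 4.19 in MEF (4.82 ± 0.15). Trim71, an RNA-binding ligase, rose by 5.82 ± 0.11. Of 19 genes tested 9 were higher and 3 lower, and the lower ones were Hmga2 (−2.49 ± 0.12), Ccnd2 (−4.54 ± 0.16) and Myc (−3.37 ± 0.15). Mycn rose by 4.74 ± 0.20 in the probe set used, so the 2 Myc family genes lay on opposite sides there. Over the 3 probe sets of Mycn above background the difference ran from 0.13 to 4.74. Mature microRNAs were not measured.

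Most replication and repair genes tested were higher in ahES cells, where 21.1% of all tested genes were higher and 21% lower. The ahES cells were sorted in G0/G1 and no sort is stated for MEF. The part of cell-cycle phase was not tested. Of 40 tested S-phase genes 27 were higher and 0 lower (median 1.37), and of 32 genes of homologous recombination and mismatch repair 25 were higher and 0 lower (median 1.65). Msh6, a mismatch recognition subunit, read 12.96, 13.42 and 13.57 in ahES cells and 10.35, 10.23 and 10.26 in MEF (3.08 ± 0.05, 8.43-fold). Brca2 rose by 2.55 ± 0.06, Chek1, a checkpoint kinase gene, by 2.58 ± 0.07 and Mcm5, a subunit of the replicative helicase, by 2.15 ± 0.05. Of 41 mitosis genes 15 were higher and 0 lower, and Top2a was within 2-fold (0.91 ± 0.05).

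Of 30 tested cyclins, Cdk genes and inhibitors of the G1 phase 9 were lower and 5 higher, near the shares of all genes (21% and 21.1%). Ccnd2, a D-type cyclin, read 9.10, 9.72 and 9.85 in ahES cells and 14.15, 14.15 and 14.17 in MEF (23.2-fold). Cdk6 (−2.12 ± 0.07), Cdkn2b (−2.39 ± 0.13) and Cdkn1c (−3.61 ± 0.28) fell too. Cdkn2a, the gene of the Ink4a and Arf proteins, was higher in ahES cells (1.71 ± 0.21). At telomeres, Terf1 (3.35 ± 0.13) and Rif1 (3.53 ± 0.12) rose, and Tert was not called (0.68 ± 0.19).

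Energy metabolism differed in a few genes. Of 34 tested genes of oxidative phosphorylation 32 were not called, and the 2 higher ones were the tissue-restricted subunits Cox7a1 (4.04 ± 0.12) and Cox6b2 (2.80 ± 0.06). In glycolysis 7 of 24 were higher and 3 lower, against 21.1% and 21% of all tested genes. Slc2a3, a high-affinity glucose transporter, read 14.54, 14.73 and 14.99 in ahES cells and 8.54, 8.53 and 8.71 in MEF (6.17 ± 0.06, 71.9-fold). Gldc, the glycine-cleaving enzyme gene known from ES cells, rose by 5.27 ± 0.09, while Phgdh, the entry enzyme of serine synthesis, fell by 1.2 ± 0.08, or by 0.83 and not called without AH129-NC1. In cholesterol synthesis 7 of 21 genes were lower, among them Hsd17b7 (−2.98 ± 0.11), Lss and Cyp51, and Ebp, an X-linked gene, was higher (1.26 ± 0.06). Over the probe sets of Hsd17b7 above background the difference ran from −2.98 to 0.45.

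Innate sensing and antigen presentation were lower in ahES cells for receptors and presentation and mixed for effectors. Of 25 sensors, receptors and factors 13 were lower and 1 higher (Mavs, 1.58 ± 0.19, or 0.72 and not called without shared probe sets), with Il1r1 (−5.50 ± 0.29), Tlr4 (−3.15 ± 0.36) and Ifngr2 (−3.46 ± 0.19) among the lower. Of 20 effectors 6 were higher and 3 lower, against 21.1% and 21% of all tested genes. Oas1a, an RNA-sensing synthetase, read 11.58, 11.84 and 12.05 in ahES cells and 7.92, 7.98 and 7.78 in MEF (3.90 ± 0.36), and Ifitm1, a membrane protein also found in germ cells, rose by 3.52 ± 0.06. Of 13 genes of MHC class I presentation 8 were lower and 0 higher. H2-K1 fell by 1.95 ± 0.07, H2-D1 by 1.70 ± 0.23 and B2m by 1.34 ± 0.08; the 129 Sv and CD1 backgrounds may carry different H2 alleles, and the effect of this on the probes was not tested.

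Secreted factors of stroma were lower in 27 of 37 cases and higher in 4 (median −2.98). Ccl7, a monocyte chemokine, read 6.53, 7.87 and 8.42 in ahES cells and 13.56, 13.66 and 13.78 in MEF (−6.03 ± 0.12), and Csf1 and Ereg fell by 5.89 ± 0.27 and 5.73 ± 0.30. Igfbp2 was higher in ahES cells (4.19 ± 0.14). Among regulators of apoptosis 11 of 25 were lower and 1 higher, and the lower ones included the death receptor gene Fas (−3.46 ± 0.36) and Casp8 (−3.34 ± 0.10). Of 32 lysosome and autophagy genes 24 were not called, against 7652 of all 13220 tested genes. Tfeb (3.55 ± 0.22) and Ulk1 (2.70 ± 0.06) rose. Of 32 antioxidant and stress genes 10 were higher and 7 lower, against 21.1% and 21% of all tested genes. Gsta4 (2.75 ± 0.25) and Gpx8 (−4.47 ± 0.13) were at the ends.

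Imprinted genes are read from the maternal or the paternal copy alone. Of 21 tested paternally expressed genes 5 were higher and 7 lower, not far from the 21.1% and 21% of all genes, and 1 of the 5, Peg10, lay near background in both groups. Igf2, a paternally expressed growth factor gene, read 9.06, 9.51 and 10.40 in ahES cells and 14.01, 13.95 and 14.04 in MEF (−4.35 ± 0.12, 20.4-fold). Dlk1 (−3.34 ± 0.36) and Ndn (−2.61 ± 0.09) fell, and Sfmbt2 (3.28 ± 0.09) and Plagl1 (1.83 ± 0.25) rose. The other Sfmbt2 probe set above background differed by 0.82.

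Of 25 tested maternally expressed genes 10 were lower, 4 higher and 11 not called. Grb10 (−3.35 ± 0.07), Cdkn1c (−3.61 ± 0.28), Osbpl5 (−5.02 ± 0.43) and Igf2r (−1.26 ± 0.12) were lower. Phlda2 (3.11 ± 0.36), Ppp1r9a (1.61 ± 0.16), Copg2 (1.09 ± 0.10) and Ascl2 (1.05 ± 0.32) were higher. Ascl2 was not called without MEF replicate 1 (0.53, adjusted p of the limma fit 0.135), with 1 mean per ahES line, without AH129-N1, without AH129-NC1 replicate 2 or with an offset of 32 signal units. Meg3, a noncoding RNA of the maternal copy, read 11.98, 12.34 and 12.65 in ahES cells and 12.41, 12.35 and 12.36 in MEF (−0.04 ± 0.09), so the groups overlapped. This rests on the probe set used for Meg3, since the mean over its probe sets was lower in ahES cells by 1.24 and was called. Imprinted state was not measured.

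The X chromosome stood apart from the autosomes. Of 470 tested X-linked genes 198 (42.1%) were higher and 67 (14.3%) lower in ahES cells, whereas 20.3% and 21.3% of 12719 autosomal genes were. X-linked genes had a median difference of 0.74 and autosomal genes one of 0.06. The gap between these medians ran from 0.67 to 0.76 over the 9 ahES arrays, and each MEF array set against the other 2 gave −0.03 to 0.01. Without the germline list the gap of the fit was 0.66, against 0.68 with it. With no filter on low values it was 0.38.

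The diploid ES arrays, against the same MEF mean, gave gaps of −0.30 to −0.07, with line values of −0.27 for CS1-1 and −0.09 for R1. The line values of AH129-5, AH129-N1 and AH129-NC1 were 0.67, 0.74 and 0.71. The ahES and diploid arrays did not overlap. An exact permutation test over 3 haploid and 2 diploid lines, two-sided by doubling the one-sided p, gave p = 0.2. The difference between the line means was 0.89. This p is the smallest that this form of the test can give for these lines, so it decides nothing. In ahES minus diploid ES itself, which uses no MEF array, the gap was 0.945 over 454 X-linked and 12408 autosomal genes, 0.909 without CS1-1 and 0.993 without R1. The gap, its test and its alternatives were chosen after seeing the data. Among single genes, Hprt read 13.67, 13.72 and 13.76 in ahES cells and 12.44, 12.47 and 12.42 in MEF (1.28 ± 0.08), and Atrx, Kdm6a and Huwe1 rose by 1.76 ± 0.14, 2.34 ± 0.10 and 1.09 ± 0.07.

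**Figure D4:**
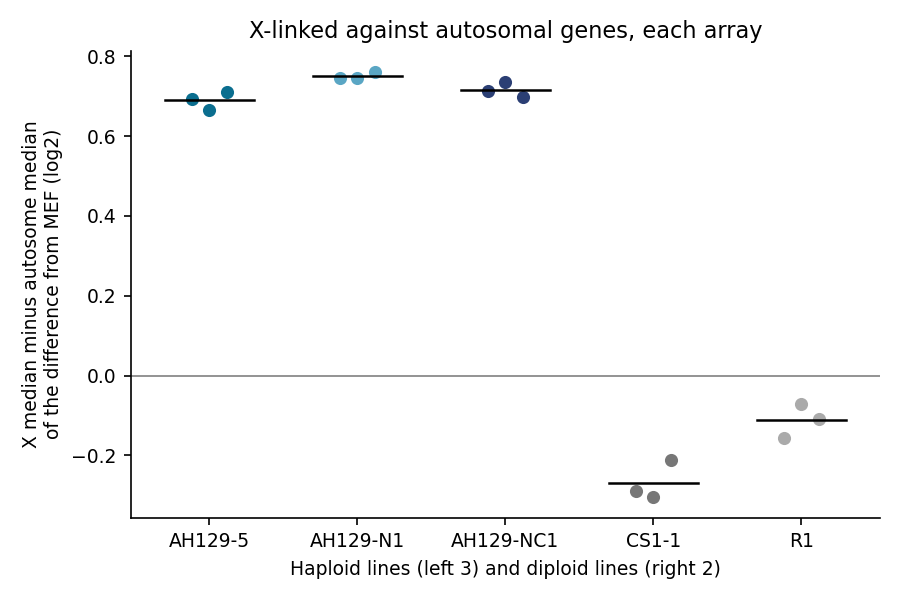
Median difference from MEF of 470 X-linked genes minus that of 12719 autosomal genes, for each array (points) of the haploid lines and of the diploid lines, with line means as bars. The 9 haploid arrays lie between 0.67 and 0.76 and the 6 diploid arrays between −0.30 and −0.07.

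Xist, the RNA that coats the inactive X of female cells, read 9.07, 9.31 and 9.99 in ahES cells and 12.68, 12.78 and 12.82 in MEF (−3.29 ± 0.10). The Y-linked gene Eif2s3y read 4.63, 5.43 and 5.88 in ahES cells and 9.21, 9.35 and 8.62 in MEF (−3.63 ± 0.19), and Uty was lower too (−1.53 ± 0.23). Among 3 tested genes of the Y-linked list, 2 were lower and 1 was not called. For Kdm5d, also on the Y, the probe set used differed by 0.11, and another, above background, by −2.87. The MEF arrays thus held both Xist and Y-linked transcripts, while Eif2s3y lay near background in ahES cells.

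The 3 ahES lines differed from MEF by much the same genes, with marked exceptions. By the F test 1112 genes (8.41%) differed between the lines by 2-fold or more, 727 of them among the 5568 called against MEF. Targets of p53, the factor that halts or kills damaged cells, varied with the line: 19 of 26 tested differed between the lines. In AH129-5 14 were lower than MEF and 1 higher, in AH129-N1 8 lower and 4 higher, and in AH129-NC1 1 lower and 8 higher. The median differences were −1.49, −0.26 and 0.07. AH129-5 had the lowest value of the lines for 21 of the 26.

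Ccng1, a p53-induced cyclin, was lower than MEF by 3.70 in AH129-5, by 1.14 in AH129-N1 and by 0.41 in AH129-NC1. Eda2r, an X-linked receptor gene that p53 induces, differed by −3.86 in AH129-5 and by 1.06 and 1.74 in AH129-N1 and AH129-NC1. Bbc3, which encodes the death-promoting protein Puma, differed by −1.45, 0.22 and 1.02 in the same order of lines. Cdkn1a, the p53-induced inhibitor of Cdk enzymes, read 10.50, 12.49 and 13.26 over the 9 ahES arrays and 13.46, 13.46 and 13.60 in MEF. The differences of Cdkn1a were −2.92 in AH129-5, −1.06 in AH129-N1 and −0.36 in AH129-NC1, and −1.45 over the 3 lines. With 1 mean per ahES line, which counts lines and not arrays, neither Cdkn1a (adjusted p of the limma fit 0.103) nor Ccng1 (0.135) was called, and 3 rather than 8 of the p53 targets were lower over the lines.

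**Figure D5:**
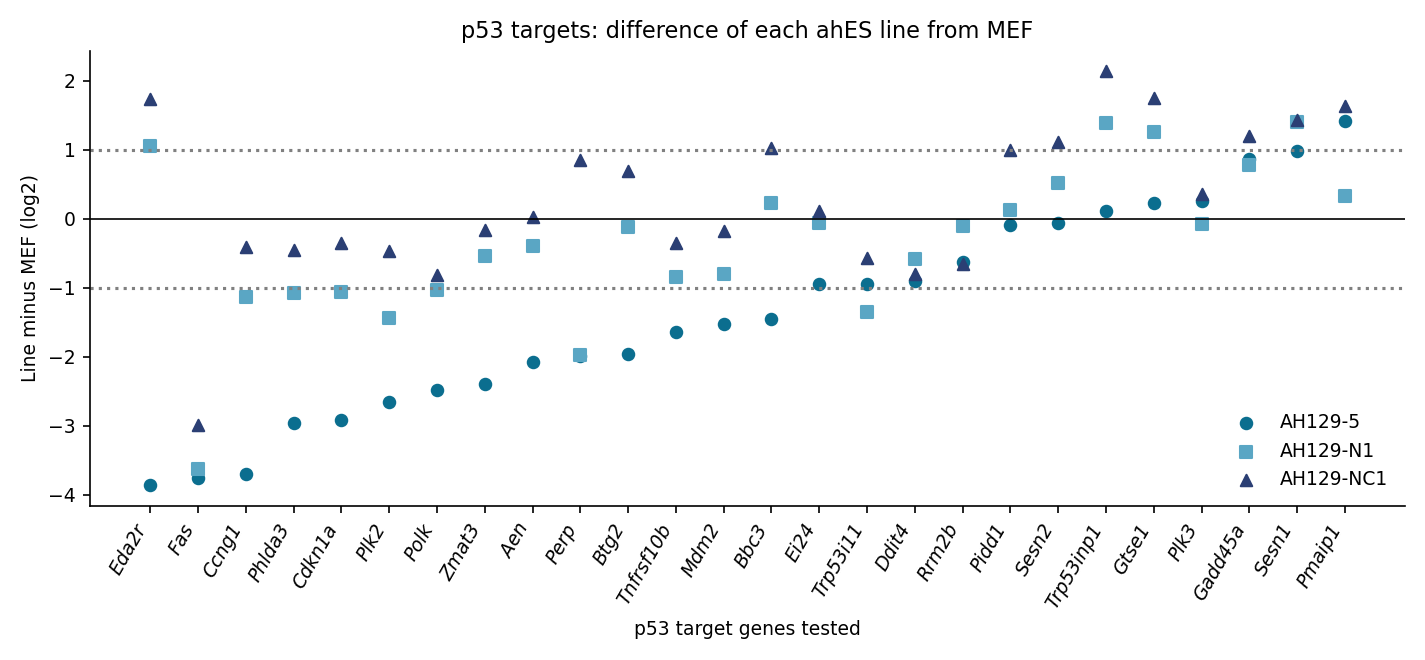
Difference from MEF (log2) of each of the 26 tested p53 target genes in AH129-5 (circles), AH129-N1 (squares) and AH129-NC1 (triangles), ordered by AH129-5, with 2-fold as dotted lines. AH129-5 is the lowest line for 21 genes.

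In 12 genes a line was called higher and another lower than MEF, Eda2r and Bbc3 among them. Gm6958 differed from MEF by −1.04 in AH129-5, 3.59 in AH129-N1 and 3.89 in AH129-NC1, and was not called with 1 mean per line (adjusted p of the limma fit 0.233). Fcgbp, which encodes a mucin-like IgG-binding protein, was likewise lowest in AH129-5, at −1.86, with 0.99 in AH129-N1 and 1.97 in AH129-NC1. D430019H16Rik (2.03, −1.68 and −1.23 in AH129-5, AH129-N1 and AH129-NC1), Hoxa9 (1.39, 0.42 and −1.04) and the Fc receptor gene Fcgr3 (1.51, −0.22 and −1.05) were highest in AH129-5. The interferon-induced genes Usp18 and Irgm1 were lower than MEF in AH129-N1 (−1.71 and −1.65) and above it in AH129-5 (1.24 and 0.92) and AH129-NC1 (0.72 and 1.32). Ddias and Def6 were lowest in AH129-5.

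Among genes called over the 3 lines, Aqp8, a water channel gene, was higher in all lines, by 6.24 in AH129-5, 2.75 in AH129-N1 and 4.18 in AH129-NC1. Mgmt, the gene of a DNA repair protein that removes alkyl groups, differed by −3.57 in AH129-5, −0.88 in AH129-N1 and −0.11 in AH129-NC1, and was not called with 1 mean per line (adjusted p of the limma fit 0.124).

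The ahES lines were also set against the diploid ES lines CS1-1 and R1 in the same medium, a comparison that uses the same ahES arrays. There 561 of 12891 genes (4.35%) differed by 2-fold or more, 284 with 1 mean per line and 1098 without R1. Among the largest rises over MEF, Gm364 stood 7.52 and 1700013H16Rik 5.62 above the diploid lines on the log2 scale. Nanog differed from them by −0.08 and Dppa5a by −0.14, neither of them called.

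Markers of other cell types that cultures from embryos can hold were also read. Of 15 macrophage markers on the array 11 were tested, and 5 were lower and 2 higher in ahES cells: Csf1r (−2.58 ± 0.17), Cd14 (−2.74 ± 0.27) and Lyz2 (−2.08 ± 0.10) fell, and Laptm5 (5.02 ± 0.14) and Cd68 (1.58 ± 0.12) rose. Ptprc, which marks all white blood cells, was at 6.60, 6.56 and 6.61 in MEF. Of 8 skeletal muscle markers 6 were lower and 1 higher, with Acta1 at −3.52 ± 0.19, and of 5 adipocyte markers 4 were lower, with Fabp4 at −4.39 ± 0.32. Of 8 endothelial markers 2 were lower and 4 higher: Flt1 fell by 5.71 ± 0.43, while Pecam1, which ES cells also express, rose by 4.73 ± 0.18. Of 7 neural and glial markers 4 were higher and 2 lower, with Stmn2 at 1.65 ± 0.15 and Map2 at −2.13 ± 0.20 (−0.99 and not called in the mean over its probe sets). Of 9 cartilage and bone markers 2 were higher and 2 lower, with Alpl, a phosphatase that ES cells also carry, at least 38.1-fold higher and Sox9 at least 4.69-fold lower. Of 6 surface epithelium markers 1 was higher (Sfn) and 1 lower (Perp, a p53 target too); Sfn lost its call under 1 alternative and Perp under 7. From 3 to 5 genes of each marker list were on the array and not tested. The part of such cells in the differences was not tested.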

How the data were processed

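RNA was extracted with TRIZOL and hybridised to an Affymetrix GeneChip mouse genome array, per the labels' protocols. The authors deposited 1 log2 value per probe set and array, made with MAS5, per the submitters' processing notes. The 2% trimmed mean of the unlogged values was 500.0 on each of the 21 arrays. Detection calls were not used here. An offset of 9.70 signal units was added before log2; it is the 20th percentile of an array's probe sets, as a median of the 21 arrays. The probe set with the highest mean stood for each of 18193 genes. Of these genes 9010 had several probe sets, which can differ from the one used. Differences were tested with limma 3.58.1 in R 4.3.3 (trend and robust moderation, group means over the 21 arrays, Benjamini-Hochberg adjustment over 13220 genes), as ahES, the mean of 3 lines, minus MEF. The fit was tested on simulated data. Standard errors cover the spread between arrays of a group and not that between lines, and the number of arrays limits the precision. The labels call the replicates biological and give no batch or day.

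Named genes were taken from the 20 largest rises and 20 largest falls with ranges that do not overlap, up to 5 called members of each list in each direction, sets of 5 or fewer, the 10 genes with the widest range between lines, up to 10 genes called on opposite sides in different lines, and key genes. The members and lists were chosen with earlier results of these data known. Replicate numbers did not pair the samples: same-numbered arrays of different groups had a mean correlation of deviations of −0.0084 over 18 pairs. Alternatives changed the offset, filter, normalization, probe set, arrays in the fit, moderation, unit of replication and block, and left out each array and each line.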

Additional observations from a re-analysis of the deposited data

Results flagged for a closer look

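A closer look is due for genes of the text whose difference from MEF varied between the ahES lines, by the F test of the limma fit, with a range between the highest and the lowest line of 2 or more on the log2 scale. Each line is 1 derivation. Among p53 targets the range was 5.60 for Eda2r, 3.29 for Ccng1, 2.55 for Cdkn1a and 2.47 for Bbc3, with AH129-5 lowest in each. For Perp, another p53 target, it was 2.83, with AH129-NC1 highest. AH129-5 was also lowest for Gm6958 (4.93), Fcgbp (3.82), Mgmt (3.46) and Tert (2.51), and highest for D430019H16Rik (3.70), Aqp8 (3.50), Fcgr3 (2.56), Hoxa9 (2.43) and Esrp1 (2.01). AH129-N1 was lowest for the interferon-induced genes Irgm1 (2.97) and Usp18 (2.95). No cause of these differences was tested. Groups of 3 arrays were not examined for single outlying arrays.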

How the results depend on the processing

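The counts of genes higher and lower in ahES cells stayed within 1.5 times under the 27 alternatives; leaving out 1 array gave 2739 to 2831 higher and 2770 to 2838 lower. Median-centring gave 3191 higher and 2507 lower, and it moved the median of all genes by 0.13. The replicate number as a block, in a design whose numbers do not pair the samples, gave 2789 higher, 2781 lower and 1100 that differ between lines. Genes that differ between the lines numbered 735 with an offset of 32 signal units and 1018 to 1105 without 1 array. Genes that differ between ahES and diploid ES numbered 284 with 1 mean per line and 1098 without R1, against 561. The gap of X-linked over autosomal medians was 0.80 with the filter at the 60th percentile, 0.64 with the mean over probe sets, 0.38 with no filter, 0.75 with no offset, 0.60 with an offset of 32, 0.75 without AH129-5, 0.71 without AH129-NC1, and 0.66 to 0.74 without 1 array; all of these values, and the 12-array fit of the lines, were chosen after seeing the data.

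Of 256 genes in the text, 32 changed their call under some alternative, and 1 changed side: Eda2r, not called over the 3 lines, was higher by 1.40 without AH129-5. Without AH129-5, Ccng1 (−0.77), Cdkn1a (−0.71) and Mgmt (−0.49) were no longer called. Sun2 (−0.97) lost its call in the mean over probe sets. Some uncalled genes passed the call, each under 1 to 3 alternatives: Nes, Tert, Dnmt3a, Top2a, Fn1, Sycp1, Pcolce2 and Irgm1. The median of the surface epithelium markers was −0.76 with the filter at the 60th percentile, against 0.36. The cause of these changes was not tested. Genes near background in both groups cannot be compared by these arrays.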
